A study of Mus musculus with 2 samples.

Results

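The 10 genes described here, Hk2, Gpi1, Aldoa, Tpi1, Gapdh, Pgk1, Pgam1, Eno1, Pkm and Ldha, encode enzymes of glycolysis, and they were taken by name from the 32285 genes of a scRNA sequencing data set. Immune cells (live and CD45+) were sorted from hepatocellular carcinomas of mice and sequenced in 2 libraries, 1 for each treatment. Male wild-type C57BL/6 J mice of 6 to 8 weeks had received plasmids for human MYC, for a guide RNA against Trp53 and for the sleeping beauty transposase by hydrodynamic tail vein injection, which gives tumors in which both genes are altered in hepatocytes while the immune cells are those of the wild-type host. Lenvatinib, a kinase inhibitor, was begun 12 days after the plasmids and was given for 25 days, when the tumors were taken as resistant. Mice of the lenvatinib library then went on with lenvatinib at 30 mg/kg, and mice of the combo library received lenvatinib at 30 mg/kg together with palbociclib, an inhibitor of CDK4 and CDK6, at 100 mg/kg. The number of mice behind a library was not given in the sources used here. With 1 library per group no test was possible, and treatment, batch and animal cannot be told apart.

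Glycolysis splits glucose into pyruvate and yields ATP and NADH in the cytosol. Lactate dehydrogenase turns pyruvate into lactate and returns NADH to NAD+, which lets the pathway run on without mitochondria. Activated T cells and NK cells, dividing cells, neutrophils and inflammatory macrophages are known to rely on it, resting lymphocytes less so, and many of its genes are targets of HIF-1 and of MYC.

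The sequences just upstream of 6 members are shown because HIF-1 and MYC are known to bind short sites upstream of several of the genes. A link between such sites and the levels given below was not tested. The core of the HIF-1 site was searched as ACGTG on both strands, where it reads CACGT on the far one. The E-box bound by MYC was searched as CACGTG, which holds the core on both strands, so that each E-box is also counted as 2 matches of the core. Each line gives the 160 bases that end just before a start site of RefSeq on GRCm38.p6, 5′ to 3′ on the strand of the gene, and capitals mark every match.
Hk2, chr6:82774455-82774614, minus strand: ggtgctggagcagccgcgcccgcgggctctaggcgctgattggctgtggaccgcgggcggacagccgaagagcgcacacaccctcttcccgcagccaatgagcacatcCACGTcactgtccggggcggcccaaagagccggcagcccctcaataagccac
Aldoa, chr7:126799255-126799414, minus strand: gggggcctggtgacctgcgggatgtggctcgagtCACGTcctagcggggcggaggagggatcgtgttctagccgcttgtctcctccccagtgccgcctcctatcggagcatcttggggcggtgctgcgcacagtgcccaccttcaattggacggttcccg
Gapdh, chr6:125165774-125165933, minus strand: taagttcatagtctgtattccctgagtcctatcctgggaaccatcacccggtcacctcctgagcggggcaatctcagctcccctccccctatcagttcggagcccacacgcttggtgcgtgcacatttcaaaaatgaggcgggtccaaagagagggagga
Pgk1, chrX:106186940-106187099, plus strand: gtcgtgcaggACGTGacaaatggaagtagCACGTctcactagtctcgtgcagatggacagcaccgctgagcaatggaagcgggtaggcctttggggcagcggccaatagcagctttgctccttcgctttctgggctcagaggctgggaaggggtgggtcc
Pgam1, chr19:41911711-41911870, plus strand: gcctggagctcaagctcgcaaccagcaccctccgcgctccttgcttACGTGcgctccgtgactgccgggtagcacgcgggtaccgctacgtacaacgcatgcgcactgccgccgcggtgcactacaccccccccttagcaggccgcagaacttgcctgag
Ldha, chr7:46845644-46845803, plus strand: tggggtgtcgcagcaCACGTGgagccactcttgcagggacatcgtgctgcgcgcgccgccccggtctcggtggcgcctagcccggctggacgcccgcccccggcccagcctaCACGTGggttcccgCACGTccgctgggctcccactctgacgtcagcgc
All 10 members had at least 1 RefSeq window of 250 bases before the start, and the core was found in those of 6 members (Hk2, Aldoa, Pgk1, Pgam1, Pkm and Ldha). It was found in 18.5% of the 27025 genes with a window and in 20.3% of the windows whose GC content was at least 50.4%, that of the member window with the least. Ldha held 5 matches of the core, 2 at each of its 2 E-boxes and 1 apart from them, and Pgk1 held 2. For Aldoa the second of 3 start sites is shown, and the window of the first had no match. For Ldha the first of 2 start sites is shown, and the window of the other had no match. Hk2 had a further match upstream of the bases shown. CACGTG was found in 1 of the 10 members, Ldha, and in 6.86% of genes. In Gapdh, as in Gpi1, Tpi1 and Eno1, neither set of letters was in these windows. A match is a string of letters and not a measured binding site.

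The lenvatinib library held 14509 barcodes with 98107503 unique molecular identifiers (UMIs, one for each captured RNA molecule), and the combo library 11989 barcodes with 93583402 UMIs. The libraries shared 49 barcode sequences. Cells with over 6000 genes or over 25% UMIs of mitochondrial genes were left out, 308 under lenvatinib and 376 under combo. A level is given as CPM, the UMIs of a gene scaled to a total of 1000000 UMIs in the same cells, with an exact Poisson 95% interval. A ratio is the CPM under combo divided by that under lenvatinib, and its bounds are the quotients of the opposite bounds of the 2 levels. In CPM, a smaller number of cells of one kind inside a gate and less of an RNA per cell cannot be told apart. These intervals cover counting error only. Because only the 3′ end of a molecule is counted, CPM was not divided by gene length, and each gene is compared with itself across cells and not with other genes. Over all kept cells the summed level of the 10 members was 3133 CPM under lenvatinib (3122 to 3144) and 4788 CPM under combo (4774 to 4803), a ratio of 1.53 (1.52 to 1.54). Gapdh gave 31.9% of these UMIs under lenvatinib and 30.9% under combo, so that a summed level follows Gapdh more than any other member.

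Cells were gated on a UMI of exactly 1 of 6 lineage genes, which avoids clusters. The gates held 5173 T cells (Cd3e) under lenvatinib and 3795 under combo, 2509 and 981 NK cells (Ncr1), 535 and 604 B cells (Cd79a), 192 and 432 monocytes or macrophages (Mo/MΦ, Csf1r), 681 and 1468 neutrophils (Csf3r), and 249 and 217 dendritic cells (Flt3). Cells with UMIs of several lineage genes (2327 and 2667) or of none (2535 and 1449) belong to no type. T cells were further split by a UMI of Cd8b1, a chain of the CD8 coreceptor, and of Pdcd1, which encodes PD-1. Each list of lineage markers was highest in its own gate, with 3360.2 and 4037 CPM for 5 T cell genes in T cells and 117387 and 253850 CPM for 6 neutrophil genes in neutrophils. In the Mo/MΦ gate 6 markers of these cells summed to 6692 CPM under lenvatinib and 11775 under combo, where the neutrophil genes, at 18455, were higher. The B gate also held plasma cells, since Jchain and Mzb1 summed to 10714 CPM under lenvatinib and 20055 under combo. Hepatocyte genes summed to at most 45.3 CPM over 6 markers in one of the 6 gates, and stromal genes to at most 0.842 CPM over 3. Of the T cell classes, Cd8b1- Pdcd1- T cells had 107 CPM under lenvatinib and 8.27 under combo, led by Apoa2.

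RNA of the neutrophil marker genes was found in every gate and differed between the libraries. Whether it came from neutrophils or was made by the gated cells themselves, as in Mo/MΦ, was not tested. In T cells the 6 neutrophil markers summed to 386 CPM in the lenvatinib and 2997 CPM in the combo library. The pair of values was 460.2 and 7133 in NK cells, 354 and 10327 in B cells, 2488 and 18455 in Mo/MΦ, and 229 and 3973 in dendritic cells. S100a8 was the most abundant of them in each type, and Csf3r was at 0 outside neutrophils by the gate. Taking out the neutrophil profile of the same library, scaled to S100a8, removed at most 7.89% of the UMIs of a type and left the summed ratio of the members at 1.38 in T cells, 1.29 in NK cells, 1.55 in Mo/MΦ and 1.498 in dendritic cells, against 1.39, 1.31, 1.56 and 1.51 before. In B cells it went from 1.05 to 0.957.

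The members are given in the order of their steps, with gene positions on mm10 from GENCODE. Hk2 (ENSMUSG00000000628, chromosome 6 from 82725025 to 82774454) encodes hexokinase 2, which traps glucose in the cell as glucose 6-phosphate. Its level ran from 22.3 CPM in B cells under lenvatinib (16.7 to 29.2) to 142 CPM in Mo/MΦ (121 to 165), and from 20.6 CPM in B cells (16.1 to 26.1) to 169 CPM in Mo/MΦ (155 to 184) under combo. This 6.35-fold and 8.20-fold span between types was the widest of the 10 members in both libraries. Myeloid cells were highest under lenvatinib, with 119 CPM in neutrophils (105 to 133) and 86.3 CPM in dendritic cells (75.1 to 98.6), above the 46.7 CPM of T cells (44.5 to 49.0) and the 38.7 CPM of NK cells (36.0 to 41.6). Neutrophils had 93.2 CPM under combo (87.5 to 99.2), a ratio of 0.786 (0.656 to 0.945) that was 0.822 without cycling cells, with an interval that includes 1 (0.676 to 1.004). T cells had 58.1 (55.1 to 61.3), a ratio of 1.24 (1.12 to 1.38), and NK cells 49.8 (45.0 to 54.9), a ratio of 1.28 (1.08 to 1.53). In B, Mo/MΦ and dendritic cells the interval of the ratio included 1.

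Gpi1 (ENSMUSG00000036427, chromosome 7 from 34201330 to 34230336) encodes glucose-6-phosphate isomerase, which makes fructose 6-phosphate. It was lowest in B cells, with 155 CPM under lenvatinib and 156 under combo, and highest in neutrophils, with 368 CPM (343 to 393) and 548 CPM (534 to 562). The ratio was 1.64 in Mo/MΦ (1.39 to 1.94) and 1.49 in neutrophils (1.36 to 1.64), against 1.20 in T cells (1.15 to 1.26) and 1.14 in NK cells (1.06 to 1.22).

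Aldoa (ENSMUSG00000030695, chromosome 7 from 126795234 to 126800751) encodes aldolase A, which cleaves fructose 1,6-bisphosphate into a pair of triose phosphates. A second feature of the same symbol (ENSMUSG00000114515) had 4 UMIs under lenvatinib and 0 under combo against 34148 and 56513, and was not used. Aldoa had 333 CPM in T cells under lenvatinib (328 to 339) and 604 under combo (595 to 614), a ratio of 1.81 (1.75 to 1.88). Dendritic cells had the lowest level under lenvatinib, 218 CPM (200.1 to 237), and went to 424 CPM (401 to 448) under combo, a ratio of 1.94 (1.69 to 2.24). It was the only member whose interval lay above 1 in all 9 classes, that is in the 4 classes of T cells and the 5 other types, and even B cells had 299 CPM (281 to 318) against 256 (236 to 278).

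Tpi1 (ENSMUSG00000023456, chromosome 6 from 124810586 to 124814296) encodes triosephosphate isomerase, which interconverts these trioses. Its ratio in dendritic cells was the highest of any member in the 9 classes, 2.09 (1.73 to 2.52), from 120.1 CPM (107 to 135) to 251 CPM (233 to 269.5). The dendritic gate may hold different cells in each library, since all 7 of its markers were lower under combo, most of all Ccr7, a gene of migrating dendritic cells, with 142 and 13.4 CPM (ratio 0.0942). Xcr1 had 79.0 and 38.8 CPM, Clec9a 87.9 and 48.4, and Siglech 1009 and 820. Basophil and mast cell genes went up in this gate, from 1.61 to 94.6 CPM over 3 genes, led by Mcpt8 (0.806 and 65.5 CPM). The part of these differences in the dendritic ratios was not tested. In T cells Tpi1 was 121 CPM under lenvatinib (117 to 124) and 207 under combo (202 to 213), while neutrophils had 133 (118 to 148) and 184 (176 to 192). The interval of its ratio lay above 1 in 8 of the 9 classes, with B cells as the exception.

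Gapdh (ENSMUSG00000057666, chromosome 6 from 125161715 to 125166467) encodes glyceraldehyde-3-phosphate dehydrogenase, the step that makes NADH. It is often used as a reference gene, and its level here was not even across types or libraries. B cells had 628 CPM under lenvatinib (597 to 661) and 682 under combo (655 to 711), whereas neutrophils had 1249.8 (1205 to 1296) and 2171 (2143 to 2199). Cd8b1+ Pdcd1+ T cells were highest under lenvatinib, with 1456 CPM (1412 to 1499.5). The ratio was 1.74 in neutrophils (1.65 to 1.83), 1.496 in Mo/MΦ (1.38 to 1.62), 1.38 in dendritic cells (1.28 to 1.48), 1.29 in T cells (1.27 to 1.32) and 1.21 in NK cells (1.17 to 1.26).

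Pgk1 (ENSMUSG00000062070, chromosome X from 106187100 to 106203699) encodes phosphoglycerate kinase 1, the first step of the pathway that makes ATP. Its level followed the summed level of the other 9 members most closely, with a Pearson correlation of 0.968 over 18 points of class and library on the log2 scale, against 0.677 for Hk2, the loosest. The points share their libraries, so that this is a description only. Pgk1 was 256 CPM in Mo/MΦ under lenvatinib (227 to 287) and 407 under combo (385 to 429). T cells had 206 CPM (201 to 210.5) and 278 (271 to 285). B cells had 139 CPM under lenvatinib (124 to 155) and 111 under combo (99.9 to 123), a ratio of 0.798 (0.646 to 0.987). The direction turned without the 34 and 14 cycling cells of the gate, with 93.9 and 102 CPM, a ratio of 1.09 (0.837 to 1.42).

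Pgam1 (ENSMUSG00000011752, chromosome 19 from 41911923 to 41918660) encodes phosphoglycerate mutase 1 and Eno1 (ENSMUSG00000063524, chromosome 4 from 150236721 to 150248879) encodes enolase 1, the steps from 3-phosphoglycerate to phosphoenolpyruvate. Pgam1 was highest in myeloid cells, with 283 CPM in neutrophils (262 to 306) and 269 CPM in Mo/MΦ (239.8 to 301) under lenvatinib, and 420.1 (408 to 433) and 421 CPM (399 to 443) under combo, values that overlap within each library. Eno1 had 385 CPM in NK cells under lenvatinib (376 to 394) and 558 under combo (542 to 575), the highest of the 9 classes, though Cd8b1- Pdcd1+ T cells and Mo/MΦ overlapped with them in both libraries. In neutrophils Eno1 had 344 (320.2 to 368) and 446 CPM (433 to 459). Reads of Eno1 and its near-identical copy Eno1b can be split in counting, which leaves Eno1 uncertain, and Eno1b had 256 and 322 UMIs against 32790 and 41350.

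Pkm (ENSMUSG00000032294, chromosome 9 from 59656368 to 59679375) encodes the muscle-type pyruvate kinase, which makes pyruvate and ATP. Its 3′ counts do not separate the M1 and M2 isoforms. It was highest in neutrophils, with 726 CPM under lenvatinib (692 to 762) and 1044 under combo (1025 to 1064). Mo/MΦ had 464 (425 to 505) and 858 CPM (826 to 889.9), a ratio of 1.85 (1.64 to 2.10).

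Ldha (ENSMUSG00000063229, chromosome 7 from 46841475 to 46855627) encodes lactate dehydrogenase A, which makes lactate. Under lenvatinib neutrophils had 257 CPM (237 to 278), below the 296 of T cells (291 to 302) and the 330.3 of NK cells (322 to 339). Under combo the order was turned, with 512 CPM in neutrophils (499 to 526), 397 in T cells (389 to 405) and 421 in NK cells (407 to 436). The ratio in neutrophils was 1.99 (1.79 to 2.22), the highest of Ldha in any class, in a gate whose own markers also moved (given with the split of neutrophils by Ptgs2). Cd8b1- Pdcd1+ T cells had the highest level of Ldha of the classes under lenvatinib, 454 CPM (421 to 489). Under combo they had 512.9 CPM, next to the 512 of neutrophils. The interval of their ratio, 1.13 (0.965 to 1.32), included 1.

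**Figure D1:**
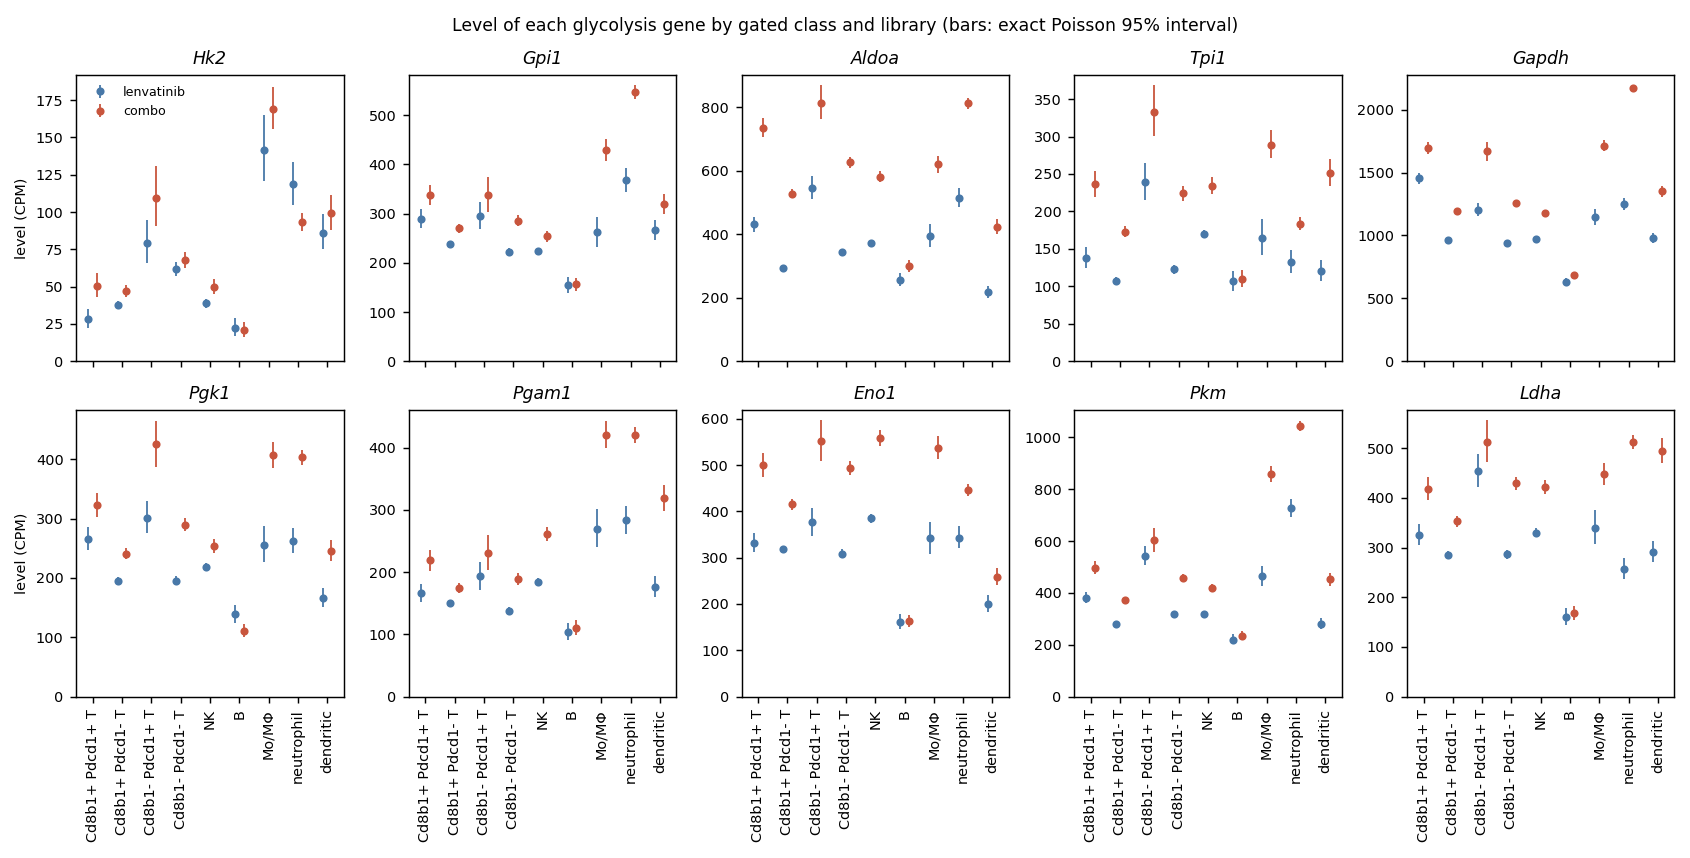
Level of each of the 10 members (CPM, y axis, from 0) in the 4 classes of T cells and 5 other gated types (x axis) under lenvatinib (blue) and combo (red), with exact Poisson 95% intervals as bars. B cells are lowest or close to lowest in each panel, and Hk2 in neutrophils and Pgk1 in B cells are the points where combo lies below lenvatinib beyond the bars.

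The summed level ordered the classes in much the same way in both libraries. Under lenvatinib B cells were lowest, with 1953 CPM (1897 to 2010.2), and neutrophils highest, with 4257 CPM (4174 to 4342). In between came dendritic cells with 2788 CPM, Cd8b1+ Pdcd1- T cells with 2873, Cd8b1- Pdcd1- T cells with 2934, NK cells with 3216, Mo/MΦ with 3780.2, Cd8b1+ Pdcd1+ T cells with 3814 and Cd8b1- Pdcd1+ T cells with 4236. Of these neighbours, dendritic and Cd8b1+ Pdcd1- T cells, Mo/MΦ and Cd8b1+ Pdcd1+ T cells, and Cd8b1- Pdcd1+ T cells and neutrophils had overlapping intervals. Under combo the order was B cells with 2054 CPM (2006 to 2104), Cd8b1+ Pdcd1- T cells with 3769, dendritic cells with 4213, NK cells with 4214, Cd8b1- Pdcd1- T cells with 4324, Cd8b1+ Pdcd1+ T cells with 5012, Cd8b1- Pdcd1+ T cells with 5586, Mo/MΦ with 5893 and neutrophils with 6633 CPM (6584 to 6683). There only dendritic and NK cells, of the neighbours, overlapped.

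The comparison of both libraries asks how the immune cells of tumors differ once palbociclib is added to lenvatinib. Summed over the members, the ratio was 1.56 in Mo/MΦ (1.49 to 1.63), 1.56 in neutrophils (1.52 to 1.60), 1.51 in dendritic cells (1.45 to 1.57), 1.39 in T cells (1.37 to 1.41), 1.31 in NK cells (1.29 to 1.34) and 1.05 in B cells (0.998 to 1.11). Every type but B was thus higher under combo beyond counting error, and without cycling cells B was too, at 1.249. The order of the types depended on the weighting, since as a mean over cells Mo/MΦ had 1.395 and T cells 1.43. The median gene went the other way on this scale, and CPM are shares of a total, so that a rise of some genes lowers the others. In neutrophils S100a8 had 58549.5 CPM under lenvatinib and 125991 under combo, and S100a9 51525 and 114433. Their part in the ratios of all genes of that gate was not tested. A gene was counted where it reached 50 CPM in either library and 10 UMIs in both. The median ratio was 0.891 over 2982 such genes in T cells, 0.927 over 3055 in NK cells, 0.7499 over 2930 in B cells, 0.928 over 3363 in Mo/MΦ, 0.708 over 2686 in neutrophils and 0.958 over 3348 in dendritic cells. The median over the members that passed was 1.35, 1.31, 1.04, 1.57, 1.49 and 1.54. Hk2 did not pass in NK and B cells, so that 9 members are counted there and 10 elsewhere. Even the ratios below 1, 0.786 for Hk2 in neutrophils and 0.798 for Pgk1 in B cells, lay above the median of all genes of their type.

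A ratio of at least 1.5 stands in for a test here. In Mo/MΦ 7 of 10 members were past it (Gpi1, Aldoa, Tpi1, Pgk1, Pgam1, Eno1 and Pkm), where 6.93% of all genes were. The own markers of this gate moved apart, with C1qa at 841 CPM under lenvatinib and 135 under combo and Lyz2, the lysozyme gene of myeloid cells, at 4877.8 and 10545, and the dendritic marker Cd209a was 180.3 and 40.3 CPM there. The gate may thus hold different cells in each library, and apart from the cells without C1qa, given with the split of neutrophils, the part of this in the Mo/MΦ ratios was not tested. In dendritic cells 5 of 10 were (Aldoa, Tpi1, Pgam1, Pkm and Ldha) against 3.26% of genes, and in neutrophils 4 of 10 (Aldoa, Gapdh, Pgk1 and Ldha) against 5.36%. In T cells 2 of 10 were (Aldoa and Tpi1) against 2.05%, in NK cells 1 of 9 (Aldoa) against 2.49%, and in B cells 0 of 9 against 2.35%. In the other direction no member was past the fold in any type, while 11.1% of genes were in T cells, 9.66% in NK cells, 37.2% in B cells, 15.8% in Mo/MΦ, 43.4% in neutrophils and 10.9% in dendritic cells. Gapdh in Mo/MΦ was just short of the fold at 1.496. The counts depended on the processing. As a mean over cells 3 of 10 members were past it in Mo/MΦ, against 9.84% of genes, and 8 of 10 in neutrophils, against 5.58%. Cells assigned by the first marker in a fixed order gave 2 of 10 in neutrophils against 4.12% and 3 of 9 in B cells against 6.52%. With 2 UMIs of the marker 3 of 10 were past it in dendritic cells against 4.15% and 0 of 9 in NK cells against 2.24%.

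**Figure D2:**
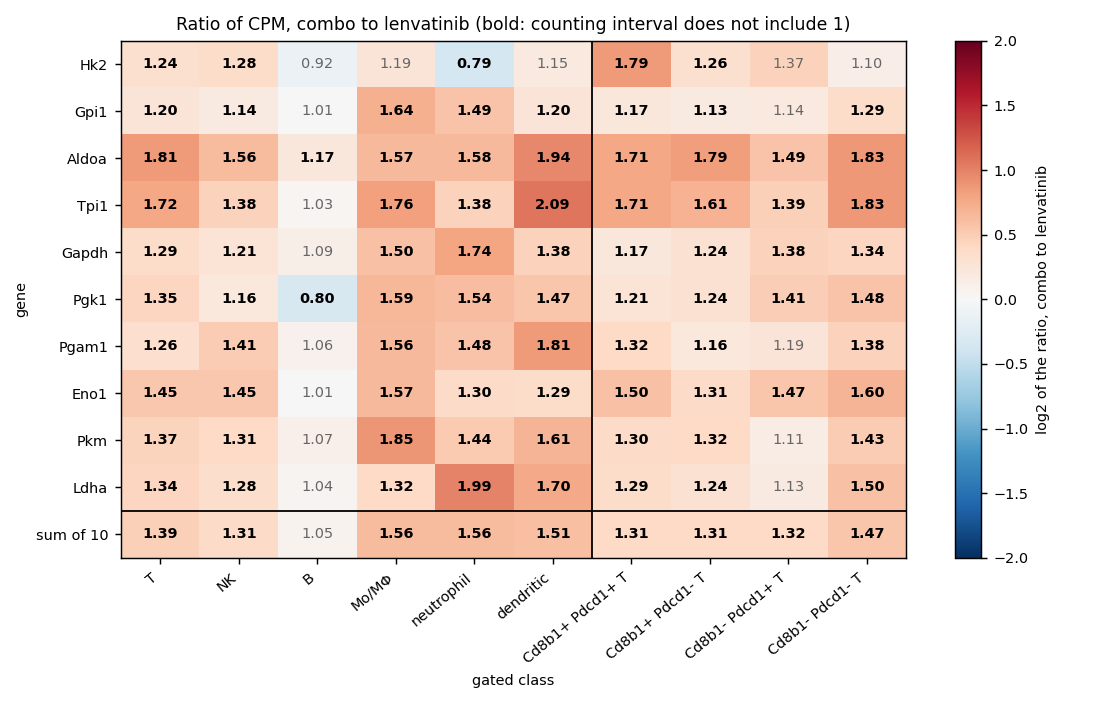
Ratio of CPM under combo to lenvatinib for the 10 members and their sum (rows) in 6 gated types and 4 classes of T cells (columns), with the number printed and its log2 as color. Bold numbers have a counting interval that does not include 1, and Aldoa is the only gene whose row is bold and above 1 throughout.

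**Figure D3:**
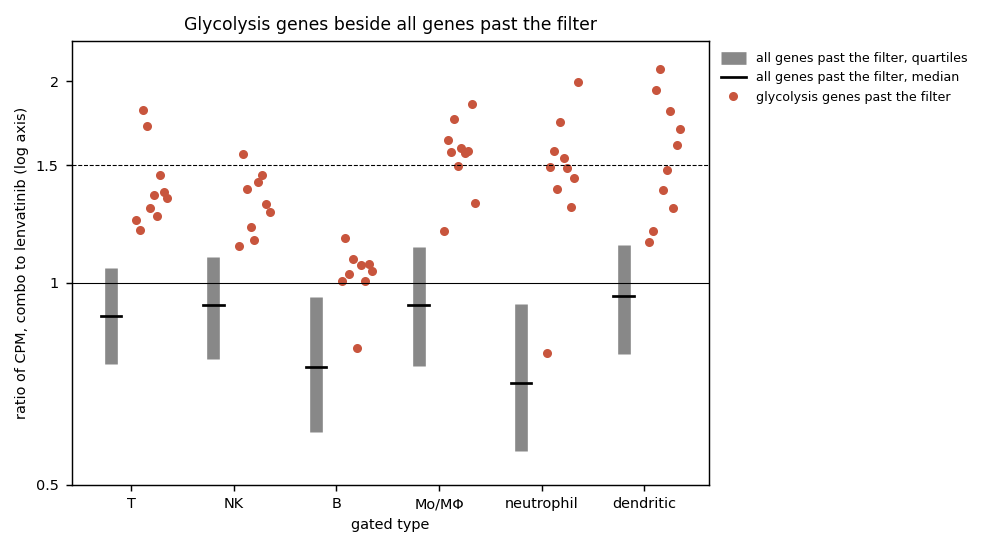
Ratio of CPM under combo to lenvatinib (log axis) in 6 gated types for the members that passed the filter (red points) beside the quartiles (gray) and median (black) of all genes that passed. The dashed line is the fold of 1.5, and all red points lie above the median of all genes of their type, the lowest being 0.786 for Hk2 in neutrophils against 0.708.

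Depth and RNA quality moved with the library as well. Depth was addressed in the ratios only by gates at an equal 2000 UMIs per cell. In neutrophils these gates put 8 of 10 members past the fold (6.23% of all genes), against 4 with the main gates (5.36%). The part of depth in the ratios was otherwise not tested. The median UMIs per neutrophil were 2516 under lenvatinib and 4744 under combo, with 3.60% and 1.95% mitochondrial UMIs, and per T cell 6019 and 5478, with 5.15% and 4.21%. Ribosomal protein genes gave 27.2% of the UMIs of T cells under lenvatinib and 31.8% under combo. With mitochondrial, ribosomal protein and hemoglobin genes out of the total the summed ratio was 1.47 in T cells and 1.505 in neutrophils, and a limit of 10% mitochondrial UMIs left it at 1.39 and 1.54.

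The T cells were then compared by Cd8b1 and Pdcd1, the second of which marks activated and exhausted T cells. Summed over the members, Cd8b1+ Pdcd1+ T cells (384 and 464 cells) had 3814 CPM under lenvatinib (3744 to 3885) and 5012 under combo (4933 to 5093), whereas Cd8b1+ Pdcd1- T cells (2409 and 1651 cells) had 2873 (2849 to 2897) and 3769 (3733 to 3806). Within a library the Pdcd1+ cells were thus 1.33 times as high as the Pdcd1- cells under lenvatinib and 1.33 times under combo. Among Cd8b1- T cells the same contrast gave 4236 against 2934 CPM, or 1.44 times, under lenvatinib (241 and 2139 cells) and 5586 against 4324 CPM, or 1.29 times, under combo (206 and 1474 cells). Since the split is made within a library, it does not share the confounding of treatment and batch. RNA of the neutrophil markers differed between the classes, and its part in the contrast was not tested. Under lenvatinib the neutrophil markers summed to 239 CPM in Cd8b1+ Pdcd1+ and 460 in Cd8b1+ Pdcd1- T cells, and under combo to 4081 and 1490. Cycling cells were more common among Cd8b1+ Pdcd1+ than Cd8b1+ Pdcd1- T cells, at 29.4% and 17.5% under lenvatinib and 8.62% and 4.54% under combo, and at 2000 UMIs per cell 16.8% and 9.39%, and 5% and 1.79%. Among Cd8b1+ T cells not counted as cycling the summed level was 3229 CPM in Pdcd1+ cells (3142 to 3318) and 2652 in Pdcd1- cells (2625 to 2679) under lenvatinib, a ratio of 1.22 (1.17 to 1.26). Under combo it was 4507 (4425 to 4590.2) and 3613 CPM (3576 to 3651), a ratio of 1.247 (1.21 to 1.28).

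The members did not take equal parts in it. Gapdh was 1.51 times as high in Pdcd1+ as in Pdcd1- cells among Cd8b1+ T cells under lenvatinib (1.44 to 1.57) and 1.42 times under combo (1.36 to 1.48), and Aldoa 1.46 (1.35 to 1.59) and 1.39 times (1.30 to 1.49). Eno1 was 1.04 (0.956 to 1.14) and 1.20 times as high (1.11 to 1.30). Hk2 had 28.3 CPM in Pdcd1+ and 37.5 in Pdcd1- cells under lenvatinib, or 0.754 times (0.559 to 1.01), and 50.8 against 47.1 under combo, or 1.08 times (0.839 to 1.38). Pgk1 was 1.37 and 1.34 times, Pkm 1.36 and 1.34 times and Tpi1 1.29 and 1.36 times as high. For Hk2 the interval included 1 in both libraries. Among Cd8b1- T cells Tpi1 had the widest gap under lenvatinib, 1.95 times (1.67 to 2.27), and Hk2 under combo, 1.61 times (1.24 to 2.09). With gates and splits made at an equal 2000 UMIs per cell the summed contrast in Cd8b1+ T cells was smaller, 1.11 under lenvatinib and 1.19 under combo.

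Across the libraries the 4 classes of T cells differed in the same direction. The summed ratio was 1.31 in Cd8b1+ Pdcd1+ (1.27 to 1.36), 1.31 in Cd8b1+ Pdcd1- (1.29 to 1.34), 1.32 in Cd8b1- Pdcd1+ (1.26 to 1.39) and 1.47 in Cd8b1- Pdcd1- T cells (1.44 to 1.504), the last of which also holds T cells whose Cd8b1 went unseen. Hepatocyte genes summed to 107 and 8.27 CPM in the last class, and their part in its ratio was not tested. In Cd8b1+ Pdcd1+ T cells 4 of 10 members were past the fold of 1.5 (Hk2, Aldoa, Tpi1 and Eno1), against 2.6% of all genes. In Cd8b1+ Pdcd1- T cells 2 of 9 were (Aldoa and Tpi1), against 2.3%. In Cd8b1- Pdcd1+ T cells 0 of 10 were, against 4.34%, and Aldoa came closest with 547 CPM under lenvatinib (511 to 585) and 815 under combo (763 to 870.3), the highest levels of Aldoa in any class. In Cd8b1- Pdcd1- T cells 4 of 10 were (Aldoa, Tpi1, Eno1 and Ldha), against 1.83%. Markers of exhausted T cells moved apart in Cd8b1+ Pdcd1+ T cells, with Tox at 459 CPM under lenvatinib and 219 under combo. Havcr2 had 53.9 and 35.3 CPM there, Pdcd1 212 and 267, and Lag3 58.9 and 64.3. That class may thus hold different cells in each library, and the part of this in its ratios was not tested.

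Cycling cells, taken as those with UMIs of at least 2 of 10 mitotic genes such as Mki67 and Top2a, were 801 of 5173 T cells under lenvatinib and 170 of 3795 under combo. At an equal depth of 2000 UMIs they made up 8.44% (7.68% to 9.26%) and 2.06% (1.63% to 2.57%), and without thinning 15.5% and 4.48%. The cycling T cells were richer in the members, with 3781 CPM under lenvatinib (3741 to 3821) against 2781 in the other T cells, or 1.36 times (1.34 to 1.38), and 6159.8 CPM under combo (6053 to 6268) against 4036, or 1.53 times (1.49 to 1.56). The same held in NK cells, with 4137 against 2948 CPM under lenvatinib (1.403 times) and 5471 against 4021 under combo (1.36 times). Fewer cycling cells were therefore counted in the library where the members were higher. Within cycling T cells the ratio of combo to lenvatinib was 1.63 (1.58 to 1.68), and within the other T cells 1.45 (1.43 to 1.47), both above the 1.39 over all T cells. The single members differed here as well. Pgk1 was 1.55 times as high in cycling as in other T cells under lenvatinib (1.45 to 1.65) and Gapdh 1.60 times (1.55 to 1.65), while Aldoa was 0.975 times (0.921 to 1.03) and Hk2 1.003 times (0.861 to 1.17). In cycling T cells Aldoa went from 327 CPM under lenvatinib to 750.4 under combo, a ratio of 2.29 (2.10 to 2.50). Under combo it was thus higher in cycling T cells (713 to 789) than in the others, at 591 CPM (581 to 601). The intervals of Hk2 overlapped there, at 64.2 CPM in cycling (53.7 to 76.1) and 57.6 in other T cells (54.5 to 60.8). Neutrophils were the other way round, since 53 cycling neutrophils under combo had 5471 CPM against 6772 in the other 1415, or 0.808 times (0.782 to 0.835), and under lenvatinib there were 32, too few to compare.

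**Figure D4:**
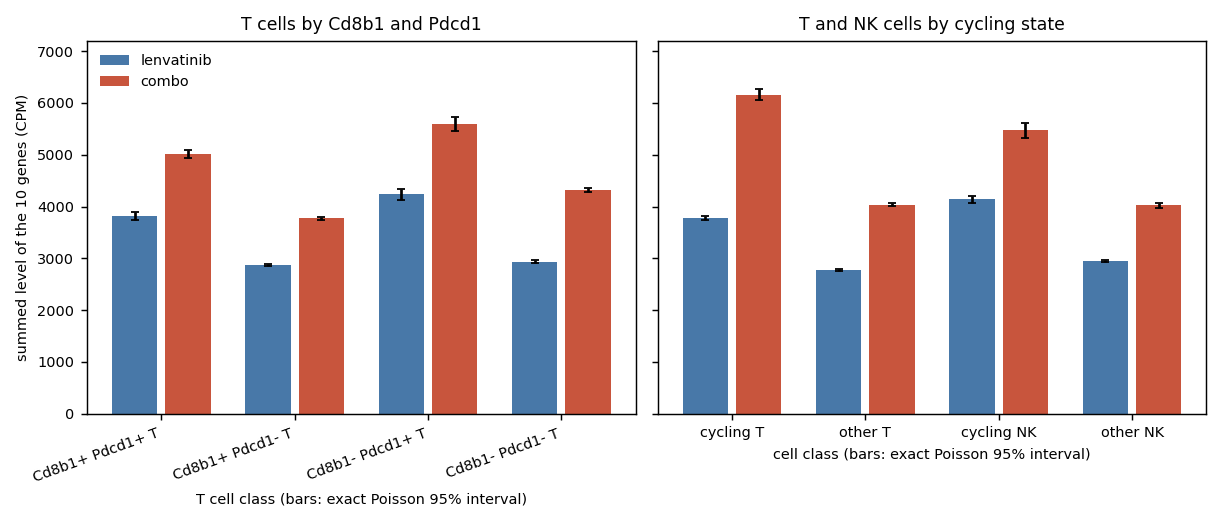
Summed level of the 10 members (CPM, y axis, from 0) under lenvatinib (blue) and combo (red), with exact Poisson 95% intervals as bars, in T cells split by Cd8b1 and Pdcd1 (left) and in cycling and other T and NK cells (right). In each library Pdcd1+ classes stand above Pdcd1- classes and cycling above other cells, and combo stands above lenvatinib in every pair.

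The markers of neutrophils moved apart between the libraries. Ptgs2, which encodes cyclooxygenase 2, had 1433 CPM in the gate under lenvatinib and 418 under combo, Csf3r 1174 and 645, and Cxcr2 586 and 447, while Retnlg had 4120 and 11916. The gate may thus hold different neutrophils in each library, also after a split by a UMI of Ptgs2, and the part of this in the ratios was not tested. Ptgs2+ neutrophils (432 and 702 cells) had a summed level of 4274 CPM under lenvatinib and 7150.3 under combo, a ratio of 1.67 (1.61 to 1.74), and Ptgs2- neutrophils (249 and 766 cells) 4239 and 6327, a ratio of 1.49 (1.44 to 1.55). Hk2 was 121 CPM under lenvatinib and 78.4 under combo in the Ptgs2- cells (ratio 0.649, 0.502 to 0.845), and 117 and 118 in Ptgs2+ cells (ratio 1.01, 0.785 to 1.32). The intervals of these ratios overlap, and the difference between them was not tested. Ldha was higher in both, with ratios of 2.14 (1.84 to 2.51) and 1.82 (1.56 to 2.13). Mo/MΦ without a UMI of C1qa, a gene of resident macrophages, gave 3723 CPM under lenvatinib (148 cells) and 5876 under combo (396 cells), a ratio of 1.58 (1.504 to 1.66), close to that of all Mo/MΦ. The C1qa+ cells, 44 and 36, were too few.

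The even summed level of the B gate joined opposite parts. B cells with a UMI of Ms4a1, which encodes CD20 and is lost in plasma cells, had 1625 CPM under lenvatinib (389 cells) and 2122 under combo (455 cells), a ratio of 1.31 (1.22 to 1.40). Plasma cell RNA differed there too, with Jchain at 1010 and 5740 CPM and Mzb1 at 318 and 1115 CPM. Its part in that ratio was not tested. Cells of the gate without a UMI of Ms4a1 had 2496 (146 cells) and 1940.1 CPM (149 cells), a ratio of 0.777 (0.716 to 0.844), and Jchain at 24865 and 40887 CPM. Pgk1 was even in the first, with 111 and 114 CPM, and lower in the second, with 185 and 105 CPM (ratio 0.568, 0.408 to 0.790). Erythroid genes were a further difference of the gate, with 1805 CPM over 3 genes under lenvatinib and 4.78 under combo, and their part was not tested. The split by Ms4a1 was chosen after the values of the gate had been seen. Without cycling cells the summed ratio of B cells was 1.249 (1.17 to 1.33), and the intervals of Tpi1, Gapdh, Pgam1 and Ldha then lay above 1.

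Over single cells the members took a small and uneven share of the RNA. The median cell gave 0.254% of its UMIs to the 10 members among T cells under lenvatinib (quartiles 0.184% and 0.346%) and 0.337% under combo (0.233% and 0.498%). Neutrophils had 0.334% (0.204% and 0.514%) and 0.568% (0.385% and 0.869%), and B cells 0.138% (0.0826% and 0.205%) and 0.160% (0.109% and 0.242%). The upper tail was longer under combo, and its 95th percentile was 1.68% in neutrophils against 0.913% under lenvatinib. The cells of the 2 libraries overlapped widely in every class. Whether a ratio reflects a shift of all cells or another mix of cells was not tested. At an equal depth of 2000 UMIs, Hk2 was seen in 18.9% of neutrophils under lenvatinib (15.5% to 22.6%) and in 17.2% under combo (15.2% to 19.3%), and in 7.17% and 8.24% of T cells. Ldha was seen in 32.5% (28.4% to 36.9%) and 55.2% of neutrophils (52.5% to 57.9%), and Aldoa in 57.1% (52.6% to 61.5%) and 73.1% (70.6% to 75.4%). Without thinning these shares were 23.1% and 34.3% for Hk2, 39.6% and 75.3% for Ldha and 63.6% and 86.9% for Aldoa, so that the order of Hk2 turned with depth. Too shallow to thin were 189 lenvatinib and 101 combo neutrophils. No gated type is known to lack these genes, so that no share of free RNA can be set beside them.

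**Figure D5:**
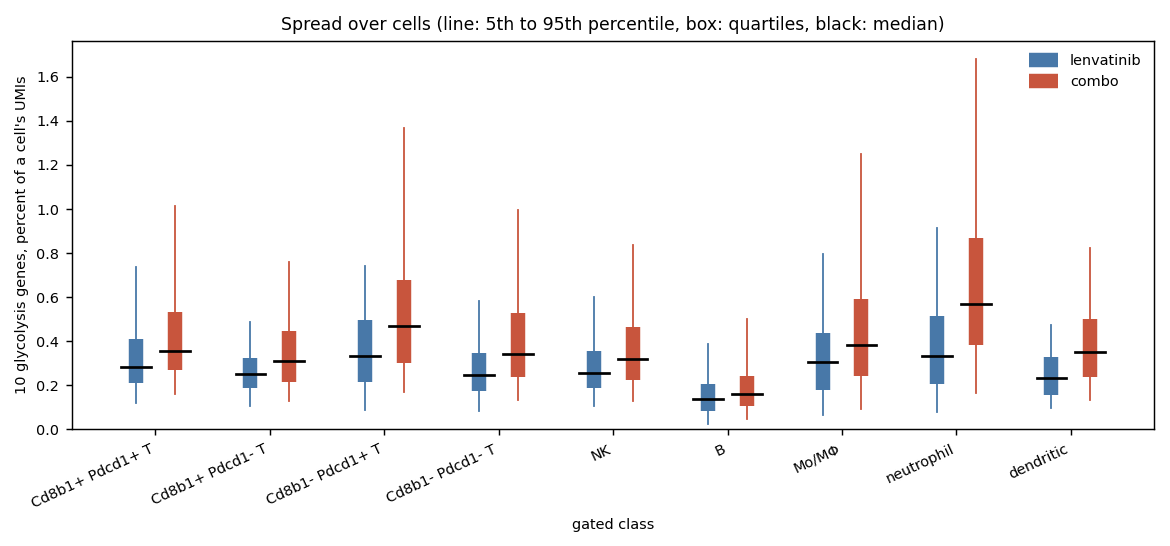
Summed UMIs of the 10 members as a percent of a cell's UMIs (y axis, from 0) by class (x axis) under lenvatinib (blue) and combo (red), with the median (black), the quartiles (box) and the range from the 5th to the 95th percentile (line) over cells. The boxes overlap in every class, and neutrophils under combo reach highest, with a 95th percentile of 1.68%.

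The other genes of the pathway had lower median ratios than the members in each of the 6 types. Of 24 further glycolysis genes, 4 passed the filter in T cells, 3 in NK cells, 1 in B cells, 4 in Mo/MΦ, 6 in neutrophils and 4 in dendritic cells, with a median ratio of 0.823, 0.790, 0.585, 1.24, 0.974 and 1.26. Of the glucose transporters, in neutrophils Slc2a3 was 286 CPM under lenvatinib and 293 under combo (ratio 1.03, 0.918 to 1.15) and Slc2a1, which encodes GLUT1, 122 and 103 (ratio 0.847, 0.710 to 1.01). In Mo/MΦ Slc2a1 had a ratio of 1.28 (0.880 to 1.88) and Slc2a3 of 0.732 (0.403 to 1.36), and the intervals of both genes included 1 in each of the 6 types. The constitutive hexokinase Hk1 was 50.2 and 41.2 CPM in T cells (ratio 0.821, 0.736 to 0.916). Phosphofructokinase, the main control point of the pathway, was split. Pfkp, the platelet-type subunit, was lower under combo in 4 types, with 218 and 179 CPM in T cells (ratio 0.820, 0.778 to 0.864), 207 and 161 in NK cells (0.780, 0.715 to 0.851), 74.1 and 43.3 in B cells (0.585, 0.426 to 0.803) and 199.6 and 147 in dendritic cells (0.737, 0.613 to 0.885). In Mo/MΦ (0.943, 0.750 to 1.19) and neutrophils (0.927, 0.775 to 1.11) its interval included 1. Pfkl, the liver-type subunit, was higher in 3 types, with 46.7 and 64.2 CPM in T cells (1.37, 1.245 to 1.52), 47.3 and 67.8 in NK cells (1.43, 1.23 to 1.67) and 43.1 and 63.5 in dendritic cells (1.47, 1.05 to 2.07). Its interval included 1 in B cells (1.03, 0.731 to 1.46), Mo/MΦ (1.20, 0.817 to 1.77) and neutrophils (1.12, 0.818 to 1.55). Past the fold of 1.5 were 2 genes upward, Slc16a3, which exports lactate, in Mo/MΦ (58.9 and 148 CPM, ratio 2.51, 1.80 to 3.54, as 1 of 4 beside 6.93% of all genes) and Ldhb in dendritic cells (68.5 and 157 CPM, ratio 2.29, 1.79 to 2.93, as 1 of 4 beside 3.26%), and 1 downward, Pfkp in B cells, where 37.2% of all genes were past it. In neutrophils Slc16a3 was 379 and 374 CPM, a ratio of 0.987 (0.896 to 1.09), while Ldha was at 1.99.

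The pentose phosphate pathway branches off at glucose 6-phosphate and makes NADPH, which the oxidase of neutrophils uses. Of its 7 genes 5 passed in neutrophils, and G6pdx, its first enzyme, went from 62.1 to 115 CPM (ratio 1.85, 1.49 to 2.33) and Tkt, a transketolase, from 316 to 488 (ratio 1.55, 1.40 to 1.71), both past the fold as 5.36% of all genes were. Pgd was 251 and 339 CPM there (ratio 1.35), and in Mo/MΦ it was past the fold, with 126 and 219 CPM (ratio 1.74, 1.37 to 2.22), as 1 of 5 that passed beside 6.93% of all genes. In B cells Rpia was past it downward (61.9 and 40.1 CPM, ratio 0.647), as 1 of 4 genes that passed, where 37.2% of all genes were, and in T, NK and dendritic cells none was, of 3, 4 and 3. The median ratio of the list was 1.10 in T cells, 1.05 in NK cells, 0.955 in B cells, 1.35 in Mo/MΦ, 1.35 in neutrophils and 1.15 in dendritic cells.

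Of 16 genes of the HIF pathway 4 passed in T cells with a median ratio of 1.20, 4 in NK cells with 1.12, 4 in B cells with 0.788, 7 in Mo/MΦ with 1.33, 7 in neutrophils with 0.934 and 4 in dendritic cells with 1.13. Hif1a, the regulated subunit, was 137 and 167 CPM in T cells (ratio 1.22, 1.15 to 1.29) and 126 and 168 in Mo/MΦ (1.33, 1.04 to 1.72), while in B cells it was 88.8 and 65.2 (0.734, 0.559 to 0.963). In NK cells (0.894), neutrophils (0.934) and dendritic cells (0.854) the interval of its ratio included 1. In Mo/MΦ the targets Bnip3 (24.6 and 52.4 CPM, ratio 2.13), Ndrg1 (48.4 and 75.2, ratio 1.55) and Ero1l (47.5 and 78.8, ratio 1.66) were past the fold, 3 of 7 beside 6.93% of all genes. In neutrophils the targets went apart, with Bnip3, a gene of mitophagy, from 58.6 to 110.2 CPM (ratio 1.88, 1.499 to 2.37), the 1 of 7 past the fold upward beside 5.36% of all genes, and Vegfa, an angiogenic factor, from 131 to 45.5 CPM (ratio 0.346, 0.283 to 0.425), the 1 of 7 past the fold downward, where 43.4% of all genes were. In B cells Arnt, the partner of Hif1a, was past the fold downward, at 56.4 and 34.4 CPM, as 1 of 4 that passed, again beside 37.2% of all genes.

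Outside these lists, 4314 genes had 50 CPM in at least 1 of the 18 points of class and library and at least 10 UMIs in every point. By Pearson correlation on the log2 scale with the summed level of the members, the 10 closest were Fxyd5 (0.866), Impa2 (0.866), Myl12b (0.859), Pigx (0.856), Pdcd6 (0.852), S100a6 (0.845), Ssu72 (0.838), Prr13 (0.822), Ostf1 (0.818) and Fam162a (0.816). All 10 were lower in B cells than in neutrophils of the same library. S100a6, a calcium-binding protein, had 225 and 402 CPM in B cells and 4083 and 8648 in neutrophils. Fxyd5, a regulator of the sodium pump, had 158 and 179 CPM in B cells and 1271 and 1116 in neutrophils, where it was thus lower under combo.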

How the data were processed

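Per the labels and the paper's methods, live CD45+ cells were run on a droplet 3′ kit and mapped to mm10. For each of 2 libraries the authors deposited a matrix of UMI counts, not normalized. The methods and the submitters' processing notes name Cell Ranger 5.0.1, and the matrix header 6.0.1. Barcodes had at least 500 UMIs. Counts were summed per gate and library in Python 3.11.15 with numpy 2.4.6, scipy 1.17.1 and pandas 2.3.3. Genes were matched by symbol, and features that share a symbol were told apart by Ensembl ID. Doublets were called with Scrublet in scanpy 1.11.5 at an expected 6%, marked 4.45% and 2.76% of cells, and were kept except in an alternative. Poisson and Clopper-Pearson 95% intervals were exact. Steps were tested on simulated data. Cells are not replicates, so that no p-value was computed and any ratio of at least 1.5 is a rule of size. Promoter windows came from RefSeq (GRCm38.p6), gene positions from GENCODE.

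By rule, all members, any of the genes of the other lists that passed the filter, and the 10 genes with the most similar levels could be named, and of the other lists some were. The members and lists were chosen with earlier results of these data known. Alternatives covered gates, cell filters, doublets, thinning, the CPM total, weighting by cell, cycling cells, the fold and the filter. Taking out the neutrophil profile, the Ms4a1 split and the Pdcd1 contrast without cycling cells were added after seeing the data.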

Additional observations from a re-analysis of the deposited data

Results flagged for a closer look

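Hk2 in neutrophils had a ratio of combo to lenvatinib of 0.786, with an interval below 1, whereas its intervals lay above 1 in 3 of the 9 classes (Cd8b1+ Pdcd1+, Cd8b1+ Pdcd1- and NK cells). Pgk1 in B cells had a ratio of 0.798, with an interval below 1, whereas its intervals lay above 1 in the other 8 classes. Without cycling cells the interval of Hk2 in neutrophils included 1, at a ratio of 0.822 (0.676 to 1.004), and that of Pgk1 in B cells too, with the direction turned, at 1.09 (0.837 to 1.42). With 1 library per group neither difference between types was tested.

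The cells that entered no gate held the members too. In cells with UMIs of several lineage genes the summed ratio was 1.53, and in cells with none of them it was 1.54, beside 1.53 over all cells.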

How the results depend on the processing

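Of 61 alternatives to the summed ratio of combo to lenvatinib over 6 types, 59 kept it above 1, and without B cells it ran from 1.28 to 1.74. Of 240 alternatives to the shares of cells with a UMI 236 moved, and these are not named one by one. Any other result is named here where it moved beyond its counting interval, and the cause was not tested. With the first marker in a fixed order the ratio was 1.42 in T cells, 1.37 in NK cells, 1.47 in B cells and 1.48 in neutrophils, and with 2 UMIs of the marker 1.28 in NK and 1.36 in dendritic cells. With gates at 2000 UMIs it was 1.14 in B cells and 1.71 in neutrophils. Without mitochondrial, ribosomal and hemoglobin genes in the total it was 1.47 in T cells, 1.35 in NK cells, 1.505 in neutrophils and 1.58 in dendritic cells. As a mean over cells it was 1.43 in T cells, 1.248 in B cells, 1.395 in Mo/MΦ and 1.74 in neutrophils. Without cycling cells it was 1.45 in T cells, 1.36 in NK cells, 1.249 in B cells, 1.65 in neutrophils and 1.65 in dendritic cells. B cells with Ms4a1 gave 1.31. The 2 values below 1 were both in B cells, 0.777 in those without Ms4a1 and 0.957 with the neutrophil profile taken out.

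The contrast of Pdcd1+ with Pdcd1- cells among Cd8b1+ T cells was 1.11 under lenvatinib and 1.19 under combo with splits at 2000 UMIs, 1.19 and 1.24 with the reduced total, 1.246 and 1.23 as a mean over cells, 1.22 and 1.247 without cycling cells, and 1.39 under combo with 2 UMIs of the marker. Cycling T cells were 1.396 and 1.34 times as high as the others at 2000 UMIs, 1.29 and 1.43 times with the reduced total, 1.28 and 1.45 times as a mean over cells, 1.42 and 1.61 times when 3 cycling genes were asked for, and 1.37 times under combo with the first marker.

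The number of members past the fold depended on it, and the share of all genes past the same fold under the same setting stands in brackets. Members at least 25% higher numbered 8 in T cells (6.94%), 6 in NK cells (8.45%) and 0 in B cells (5.43%). In Mo/MΦ they numbered 9 (16.4%), in neutrophils 9 (9.42%) and in dendritic cells 8 (13.6%). At a fold of 2 the count was 0 in T (0.704%), NK (0.949%), Mo/MΦ (2.44%) and neutrophil cells (2.31%) and 1 in dendritic cells (1.16%). The first marker gave 2 in NK cells (3.86%), 3 in B cells (6.52%) and 2 in neutrophils (4.12%), 2 UMIs of the marker gave 0 in NK (2.24%) and 3 in dendritic cells (4.15%), and gates at 2000 UMIs gave 8 in neutrophils (6.23%). A mean over cells gave 1 in B cells (3.14%), 3 in Mo/MΦ (9.84%) and 8 in neutrophils (5.58%), and leaving out cycling cells gave 2 in NK cells (2.34%) and 7 in neutrophils (5.57%). No paired analysis was possible because each group had 1 library.

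With 192 Mo/MΦ and 249 dendritic cells under lenvatinib, counting error alone left the ratio of a single gene with wide bounds there, from 0.940 to 1.52 for Hk2 in Mo/MΦ against 1.12 to 1.38 in T cells. No count covers the spread between mice.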
